A study of Mus musculus with 60 samples.

Results

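Hspb1, Bag3 and Calr encode proteins that keep other proteins folded, and their expression was followed here in the brains of mice with and without mammary tumors, collected in the dark or in the light. They are the 3 members picked by gene symbol from the 770 genes of a nanoString Mouse Neuroinflammation panel. The members were chosen from values measured in these samples, with the tumor comparisons, the dark against light comparisons and the covariation between mice in view. For the members those readouts, and the levels across brain regions, are therefore given below as description, with no test read as a result. Tests read for the members are limited to their relations to RNA purity, spleen mass and tumor mass. Other genes of the panel were tested in the fit across all genes. That fit holds the members too. Which of them passed is stated, and nothing is read from it.

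All mice were female Balb/C from Charles River and were 13 weeks old at collection. Cells of the 67NR line, a non-metastatic mammary carcinoma line from a spontaneous tumor of a Balb/cfC3H mouse, or vehicle alone (DMEM) were injected into mammary glands on both sides. Tissue was taken 25 days later, either in the middle of the dark phase (mid-dark, ZT19) or in the middle of the light phase (mid-light, ZT7), where ZT counts hours from lights on, so that there were 4 groups of 5 mice: vehicle dark, vehicle light, tumor dark and tumor light. Mice were perfused, and each of the 20 animals gave RNA from brain stem, hippocampus and hypothalamus. Of the 60 samples listed, 56 had values. The hypothalamus lacked mice 12 and 32 (vehicle dark) and mouse 10 (vehicle light), and the brain stem lacked mouse 8 (vehicle dark). The tumors came from 1 cell line, and each phase of the day was sampled at 1 time, which limits the groups as models of cancer and of the daily cycle.

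Hspb1 is a small heat shock protein that holds unfolding proteins in a soluble state and stabilises the cytoskeleton. It is induced by heat shock factor under many kinds of stress, and in brain it is known from glia, vessels and injured neurons. Bag3 is a co-chaperone that binds the HSP70 chaperones through its BAG domain, works with small heat shock proteins and hands damaged proteins to autophagy. Calr, calreticulin, is a lectin chaperone of the endoplasmic reticulum that folds glycoproteins together with calnexin and stores calcium. On the surface of stressed or dying cells calreticulin is known as a signal for engulfment by phagocytes.

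The values are normalized and on a log2 scale, so a difference of 1 is a doubling of the linear value. Every sample had been brought to the same distribution by quantile normalization, and the median of the 770 genes lay between 8.07 and 8.09 in all samples. Depth was unknown, because raw counts were not used here, and the number of mice limits the precision. Hspb1 took 52 distinct values over the 56 samples and lay in the middle ranks of the 770 genes of a sample, as did Bag3 with 42 values. Calr, near the top, ranked between 5th and 15th and took only 11 distinct values, so it moved in coarse steps from one rank to the next and its ties make its spread look small. Of 4 forebrain neuron genes, Slc17a7, Nrgn and Tbr1 were higher in every hippocampus sample than in any sample of the other regions. Slc17a7, the glutamate transporter of forebrain excitatory neurons, was at 12.65 to 13.29 in hippocampus, 4.85 to 9.05 in hypothalamus and 9.52 to 10.63 in brain stem. Reln overlapped, at 8.17 to 9.49, 7.53 to 8.40 and 8.27 to 9.78 in the same order. The absorbance ratio that measures RNA purity was under 1.8 in 3 of 5 tumor dark brain stem samples, in 1 brain stem sample each of the tumor light and vehicle light groups, in 1 vehicle dark hippocampus and in no other sample. As the samples are bulk tissue, fewer cells of a type and less RNA per cell cannot be told apart.

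The promoters of the members are shown because heat shock factor and the unfolded protein response act through known sequence elements. The 250 bases before each start site come from RefSeq on build GRCm38.p6, a C57BL/6J genome, whereas the mice were Balb/C. Capitals mark matches to the motifs searched on both strands, which were the heat shock element in the forms GAANNTTC and TTCNNGAA, the E-box CACGTG, the cAMP element TGACGTCA and the ER stress element by name. Hspb1 lies at chr5:135887669-135887918 on the plus strand, Bag3 at chr7:128523333-128523582 on the plus strand and Calr at chr8:84846932-84847181 on the minus strand.
Hspb1 promoter: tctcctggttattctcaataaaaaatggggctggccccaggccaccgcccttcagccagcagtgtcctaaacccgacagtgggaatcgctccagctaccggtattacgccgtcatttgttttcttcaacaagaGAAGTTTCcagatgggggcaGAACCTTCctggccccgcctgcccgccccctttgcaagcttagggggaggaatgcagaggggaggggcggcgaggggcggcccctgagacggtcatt
Bag3 promoter: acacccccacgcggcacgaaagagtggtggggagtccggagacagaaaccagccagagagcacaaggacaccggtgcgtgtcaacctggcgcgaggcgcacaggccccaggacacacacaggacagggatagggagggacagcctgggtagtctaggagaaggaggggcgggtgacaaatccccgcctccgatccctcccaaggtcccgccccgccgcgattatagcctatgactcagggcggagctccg
Calr promoter: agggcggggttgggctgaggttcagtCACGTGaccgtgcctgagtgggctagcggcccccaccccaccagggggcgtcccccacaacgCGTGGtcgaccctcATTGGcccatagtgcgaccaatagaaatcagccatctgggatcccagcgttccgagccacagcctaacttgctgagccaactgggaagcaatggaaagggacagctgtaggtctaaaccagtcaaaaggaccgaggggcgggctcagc

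The Hspb1 promoter held 2 matches to GAANNTTC, at bases -117 to -110 and -97 to -90 from the start. Among 32851 promoters of 27025 genes, 6.69% held at least 1 such match in these 250 bases and 0.228% held 2 or more. The Bag3 promoter held no match before the start and 1 match to GAANNTTC at bases 43 to 50 after it, in a window of 300 bases in which 7.86% of promoters held one. The Calr promoter held CACGTG at bases -224 to -219, which 6.02% of promoters held, and the ER stress element on the opposite strand at bases -162 to -144, which 0.113% of promoters held. TTCNNGAA was found in 7.17% of promoters and TGACGTCA in 1.55%, and in none of the members. These are matches of letters and not measured binding sites.

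Hspb1 was higher at mid-dark than at mid-light in vehicle injected mice in all 3 regions. The mid-dark mean was 1.78-fold the mid-light mean in hippocampus, 1.74-fold in hypothalamus and 1.68-fold in the brain stem. In tumor-bearing mice the dark against light difference was smaller in each region, and the mid-dark level was lower than that of vehicle injected mice. At mid-light the tumor and vehicle groups overlapped in each region.

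In hippocampus, Hspb1 in vehicle dark mice 4, 8, 12, 28 and 32 was 8.60, 7.93, 8.20, 7.94 and 8.61. In vehicle light mice 2, 6, 10, 22 and 30 it was 7.44, 7.22, 7.36, 7.44 and 7.64. Every vehicle dark sample lay above every vehicle light sample. The tumor dark mice 3, 7, 11, 19 and 23 had 7.68, 7.71, 7.97, 8.02 and 7.60. The tumor light mice 1, 5, 9, 13 and 29 had 7.28, 7.22, 7.75, 7.09 and 6.91. Mouse 9 was the highest of its group and reached into the tumor dark range, and the tumor dark range reached into the lower part of the vehicle dark range.

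Mean Hspb1 in hippocampus was 8.26 ± 0.34 (SD, n = 5) in vehicle dark, 7.42 ± 0.15 in vehicle light, 7.80 ± 0.19 in tumor dark and 7.25 ± 0.31 in tumor light. The dark minus light difference was 0.83 (SE 0.16, 95% interval 0.50 to 1.17) in vehicle injected mice, the 5th highest of 769 genes. In tumor-bearing mice it was 0.54 (SE 0.16, 0.21 to 0.88), the 9th highest. The tumor-bearing difference was 65.3% of the vehicle one on the log2 scale. Tumor minus vehicle was -0.46 (SE 0.16, -0.79 to -0.13) at mid-dark and -0.17 (SE 0.16) at mid-light. The difference between the dark minus light differences, tumor minus vehicle, was -0.29 (SE 0.22, -0.76 to 0.18), an interval that includes 0.

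In hypothalamus, Hspb1 in vehicle dark mice 4, 8 and 28 was 8.82, 8.74 and 8.59. In vehicle light mice 2, 6, 22 and 30 it was 7.80, 7.98, 8.25 and 7.64. The vehicle dark samples again lay above all vehicle light samples. The tumor dark mice, in the same order as above, had 8.03, 8.48, 7.87, 8.46 and 7.99. The tumor light mice had 7.24, 7.57, 8.22, 7.63 and 7.74. All tumor dark samples lay below all vehicle dark samples, and mouse 9 was again the highest of the tumor light group.

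Mean Hspb1 in hypothalamus was 8.71 ± 0.12 (SD, n = 3) in vehicle dark, 7.92 ± 0.26 (n = 4) in vehicle light, 8.17 ± 0.28 (n = 5) in tumor dark and 7.68 ± 0.35 (n = 5) in tumor light. The dark minus light difference was 0.80 (SE 0.21, 95% interval 0.36 to 1.23) in vehicle injected mice, the 5th highest of 770 genes. In tumor-bearing mice it was 0.49 (SE 0.17, 0.12 to 0.85), the 14th highest and 61.0% of the vehicle one on the log2 scale. At mid-dark, tumor minus vehicle was -0.55 (SE 0.20, -0.97 to -0.13), and at mid-light it was -0.24 (SE 0.18). The difference of differences was -0.31 (SE 0.27, -0.88 to 0.26).

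In brain stem, Hspb1 in vehicle dark mice 4, 12, 28 and 32 was 9.27, 9.25, 9.54 and 9.54. In the vehicle light mice it was 8.62, 8.41, 8.55, 8.72 and 8.99. No vehicle dark value fell to the vehicle light range. In the tumor dark mice it was 9.18, 9.02, 8.85, 9.10 and 8.81. In the tumor light mice it was 8.38, 8.58, 8.94, 8.78 and 8.79. The tumor dark samples all lay below the vehicle dark samples, and mouse 9 was for the third time the highest tumor light sample.

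Mean Hspb1 in brain stem was 9.40 ± 0.17 (SD, n = 4) in vehicle dark, 8.66 ± 0.22 (n = 5) in vehicle light, 8.99 ± 0.16 in tumor dark and 8.70 ± 0.22 in tumor light. The dark minus light difference was 0.74 (SE 0.13, 95% interval 0.48 to 1.01) in vehicle injected mice, the 2nd highest of 769 genes. In tumor-bearing mice it was 0.30 (SE 0.12, 0.05 to 0.55), the 32nd highest and 39.6% of the vehicle one. Tumor minus vehicle was -0.41 (SE 0.13, -0.67 to -0.14) at mid-dark and 0.04 (SE 0.12) at mid-light. The difference of differences was -0.45 (SE 0.17, -0.81 to -0.08). The RNA absorbance ratio was 1.34 to 1.99 in the tumor dark brain stem samples and 1.95 to 2.01 in the vehicle dark ones. Without the 5 brain stem samples under 1.8, the mid-dark difference of Hspb1 was -0.47 and the difference of differences -0.48. That left only mice 7 and 11 in the tumor dark group, and the part of RNA purity in these differences was not tested.

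**Figure D1:**
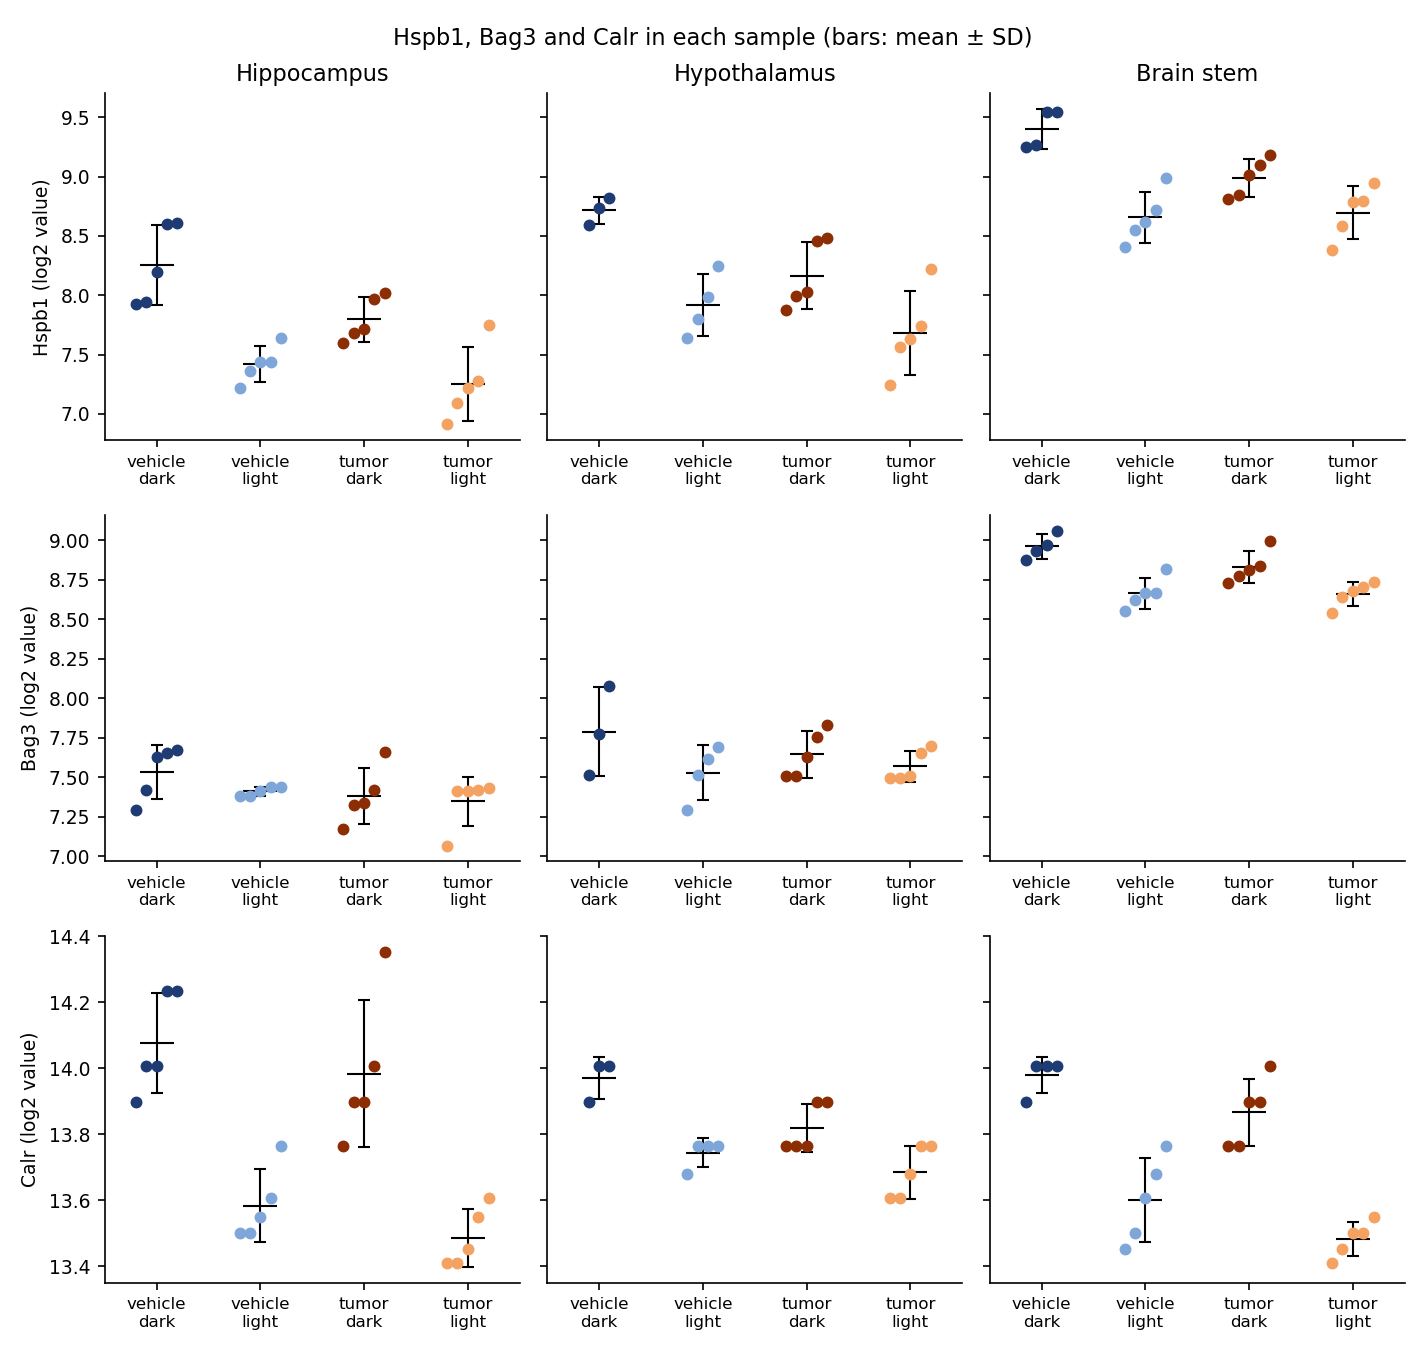
Normalized log2 level of Hspb1, Bag3 and Calr (rows) in hippocampus, hypothalamus and brain stem (columns), with 1 point per sample and the mean ± SD of each group beside it. Hspb1 in vehicle dark mice sits above the vehicle light mice in every region, and Calr sits higher in the dark than in the light groups with several samples of a group on the same value.

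Bag3 separated the dark from the light samples only in the brain stem of vehicle injected mice. Its dark minus light difference in vehicle injected mice was 0.12 in hippocampus, 0.26 in hypothalamus and 0.30 in the brain stem, where the mid-dark mean was 1.23-fold the mid-light mean. In tumor-bearing mice the differences were 0.03, 0.07 and 0.17. With tumor status, its groups overlapped in all 3 regions at both times.

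In hippocampus, Bag3 in the vehicle dark mice was 7.67, 7.63, 7.29, 7.42 and 7.65. In the vehicle light mice it was 7.44, 7.38, 7.44, 7.38 and 7.41. The vehicle light values lay close together and inside the range of the vehicle dark values. In the tumor dark mice it was 7.66, 7.42, 7.33, 7.17 and 7.32. In the tumor light mice it was 7.43, 7.41, 7.41, 7.42 and 7.07. Mouse 29 stood below the other tumor light samples, which were close together. Group means were 7.53 ± 0.17, 7.41 ± 0.03, 7.38 ± 0.18 and 7.35 ± 0.16 (SD, n = 5 each) in the order vehicle dark, vehicle light, tumor dark and tumor light.

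In hypothalamus, Bag3 in the vehicle dark mice was 7.52, 7.77 and 8.08. In the vehicle light mice it was 7.52, 7.61, 7.29 and 7.69. The groups overlapped at their lower end. In the tumor dark mice it was 7.63, 7.50, 7.83, 7.50 and 7.75. In the tumor light mice it was 7.49, 7.49, 7.65, 7.70 and 7.50. The tumor groups shared most of their range, and the highest Bag3 of the region was that of vehicle dark mouse 28. Group means in the same order were 7.79 ± 0.28 (SD, n = 3), 7.53 ± 0.17 (n = 4), 7.64 ± 0.15 (n = 5) and 7.57 ± 0.10 (n = 5).

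In brain stem, Bag3 in the vehicle dark mice was 8.94, 8.97, 9.06 and 8.88. In the vehicle light mice it was 8.67, 8.55, 8.67, 8.82 and 8.62. Here all dark samples lay above all light samples. In the tumor dark mice it was 8.81, 8.99, 8.73, 8.84 and 8.78. In the tumor light mice it was 8.71, 8.68, 8.74, 8.64 and 8.54. The tumor groups met only at their edges, where the lowest dark value lay just under the highest light value. Group means in the same order were 8.96 ± 0.08 (SD, n = 4), 8.66 ± 0.10, 8.83 ± 0.10 and 8.66 ± 0.08 (n = 5 each).

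For Bag3 in brain stem the dark minus light difference was 0.30 (SE 0.07, 95% interval 0.16 to 0.43) in vehicle injected mice and 0.17 (SE 0.06, 0.04 to 0.30) in tumor-bearing mice. In hypothalamus the vehicle difference was 0.26 (SE 0.13, -0.01 to 0.53) and in hippocampus 0.12 (SE 0.09, -0.07 to 0.32), and both intervals include 0. At mid-dark, tumor minus vehicle for Bag3 was -0.15 (SE 0.09) in hippocampus, -0.15 (SE 0.12) in hypothalamus and -0.13 (SE 0.07) in brain stem. At mid-light the same difference was -0.06 (SE 0.09), 0.04 (SE 0.11) and -0.005 (SE 0.06).

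Calr was higher at mid-dark in every region of vehicle injected mice, with the mid-dark mean 1.41-fold the mid-light mean in hippocampus, 1.17-fold in hypothalamus and 1.30-fold in the brain stem. In tumor-bearing mice the fold was 1.41 in hippocampus and 1.31 in brain stem. On the log2 scale the tumor-bearing difference was 101.4% of the vehicle one in hippocampus, 101.6% in brain stem and 59.1% in hypothalamus. With tumor status Calr overlapped in all regions and at both times.

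In hippocampus, Calr in the vehicle dark mice was 13.90, 14.01, 14.01, 14.23 and 14.23. Vehicle light mice had 13.55, 13.50, 13.77, 13.50 and 13.61. The dark samples all lay above the light samples. Tumor dark mice had 13.90, 13.90, 13.77, 14.01 and 14.35. Tumor light mice had 13.61, 13.41, 13.55, 13.45 and 13.41. The same separation was seen in the tumor-bearing mice, and mouse 23 had the highest Calr of all samples. Group means in the order vehicle dark, vehicle light, tumor dark and tumor light were 14.08 ± 0.15, 13.58 ± 0.11, 13.98 ± 0.22 and 13.49 ± 0.09 (SD, n = 5 each).

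In hypothalamus, Calr in the vehicle dark mice was 14.01, 13.90 and 14.01. Vehicle light mice had 13.68, 13.77, 13.77 and 13.77. The dark samples lay above the light samples, with the lowest dark and the highest light value on neighbouring steps of the scale. Tumor dark mice had 13.90, 13.77, 13.77, 13.90 and 13.77. Tumor light mice had 13.68, 13.61, 13.61, 13.77 and 13.77. The tumor groups met at the shared value 13.77, which 3 dark and 2 light samples held. Group means in the same order were 13.97 ± 0.06 (SD, n = 3), 13.74 ± 0.04 (n = 4), 13.82 ± 0.07 (n = 5) and 13.68 ± 0.08 (n = 5).

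In brain stem, Calr in the vehicle dark mice was 13.90, 14.01, 14.01 and 14.01. Vehicle light mice had 13.61, 13.68, 13.77, 13.45 and 13.50. Again no dark sample reached down to a light sample. Tumor dark mice had 13.90, 13.77, 13.77, 14.01 and 13.90. Tumor light mice had 13.55, 13.50, 13.50, 13.41 and 13.45. The tumor groups were likewise apart. Group means in the same order were 13.98 ± 0.05 (SD, n = 4), 13.60 ± 0.13, 13.87 ± 0.10 and 13.48 ± 0.05 (n = 5 each).

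The dark minus light difference of Calr in hippocampus was 0.49 (SE 0.10, 95% interval 0.29 to 0.69) in vehicle injected and 0.50 (SE 0.10, 0.30 to 0.70) in tumor-bearing mice. In hypothalamus it was 0.23 (SE 0.06, 0.09 to 0.36) and 0.13 (SE 0.05, 0.02 to 0.24), and in brain stem 0.38 (SE 0.07, 0.24 to 0.52) and 0.38 (SE 0.06, 0.25 to 0.52). The difference of differences for Calr was 0.01 (-0.28 to 0.29) in hippocampus, -0.09 (-0.27 to 0.08) in hypothalamus and 0.01 (-0.19 to 0.20) in brain stem. These intervals leave room for a change of the daily difference by tumor in either direction. Tumor minus vehicle at mid-dark was -0.09 (SE 0.10), -0.15 (SE 0.06) and -0.11 (SE 0.07) in hippocampus, hypothalamus and brain stem, and at mid-light -0.10 (SE 0.10), -0.06 (SE 0.06) and -0.12 (SE 0.06). Without the brain stem samples of an RNA absorbance ratio under 1.8, the dark minus light difference of Calr in tumor-bearing mice was 0.28 in place of 0.38, and tumor minus vehicle at mid-dark was -0.21. The tumor dark group then held only mice 7 and 11.

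**Figure D2:**
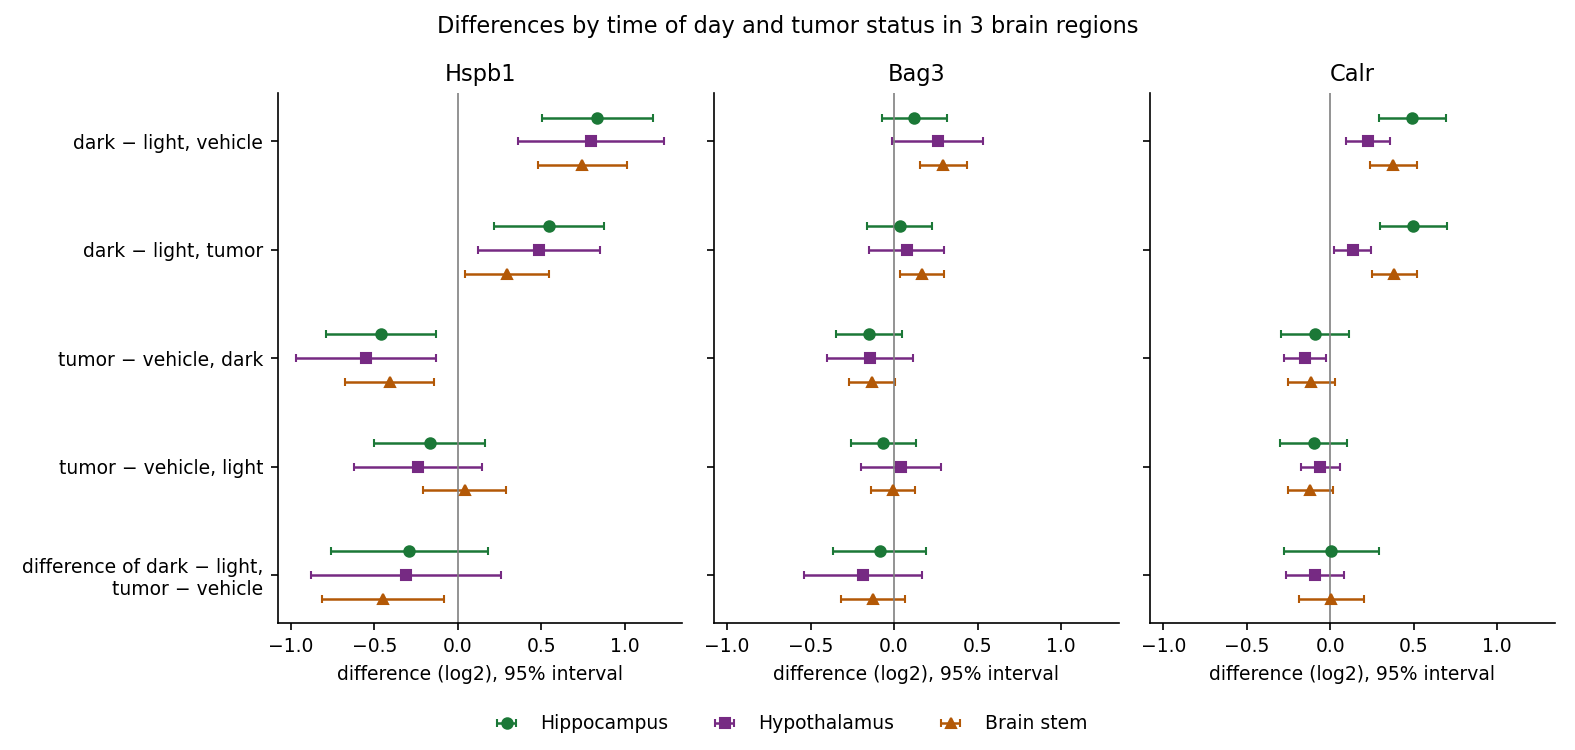
Differences in log2 level for Hspb1, Bag3 and Calr in each region, as points with 95% intervals from the fit across all genes, for tumor minus vehicle at each time, dark minus light in each tumor group and the difference of the latter. Hspb1 in vehicle injected mice is at 0.74 to 0.83 for dark minus light, and the Calr differences are of like size in vehicle and tumor-bearing mice in hippocampus and brain stem.

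For each contrast the share of all genes that passed limma's test at an adjusted p under 0.05 is given beside the members, which were chosen with these contrasts in view, so nothing is read from the counts. For dark minus light in vehicle injected mice, 2.34% of genes passed in hippocampus (Hspb1 and Calr among them), 0.26% in hypothalamus (no member) and 1.3% in brain stem (all 3 members). For dark minus light in tumor-bearing mice, 1.04% passed in hippocampus (Calr among them), 1.04% in hypothalamus (no member) and 0.78% in brain stem (Calr among them). The calls of Bag3 in brain stem and of Calr in tumor-bearing mice were lost under some settings, given in the last section. For tumor minus vehicle at mid-dark, 0.13% passed in hippocampus, 0% in hypothalamus and 0.26% in the brain stem, and at mid-light 0.13%, 0% and 0.78%, with no member in any of them. The difference of differences passed for 0% of genes in each region by limma, and 47, 20 and 28 genes had an unadjusted p under 0.05 in hippocampus, hypothalamus and brain stem. In hypothalamus, where limma called 0 genes for tumor minus vehicle, 37 genes at mid-dark and 40 at mid-light had an unadjusted p under 0.05.

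The number of members whose groups did not overlap is likewise a description. For dark minus light in vehicle injected mice it was 2 in hippocampus and 2 in hypothalamus, Hspb1 and Calr both times, and all 3 in brain stem, where 4.16%, 7.92% and 5.84% of all genes did not overlap. For dark minus light in tumor-bearing mice it was Calr alone in hippocampus and brain stem and no member in hypothalamus, beside 1.95%, 2.34% and 2.47% of all genes in these regions. At mid-dark, tumor against vehicle did not overlap for Hspb1 in hypothalamus (3.38% of genes) and brain stem (2.34%) and for no member in hippocampus (0.779%). At mid-light no member was apart, beside 2.08%, 1.43% and 1.3% of genes in hippocampus, hypothalamus and brain stem. The vehicle dark samples enter both the daily difference of vehicle injected mice and the tumor difference at mid-dark, so a high vehicle dark group raises the former and lowers the latter.

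Between regions, mean Hspb1 and mean Bag3 were both higher in brain stem than in the other two regions, and the Calr means lay close together. These differences come from a fit over all 56 samples with a mean for each region and group. Mean Hspb1 was 7.68 in hippocampus, 8.12 in hypothalamus and 8.94 in the brain stem. Hspb1 in brain stem exceeded hippocampus by 1.26 (SE 0.08, 95% interval 1.10 to 1.41, 2.39-fold) and hypothalamus by 0.82 (SE 0.08, 0.65 to 0.98, 1.76-fold), and hippocampus minus hypothalamus was -0.44 (SE 0.08, -0.60 to -0.28). Bag3 in brain stem exceeded hippocampus by 1.36 (SE 0.04, 1.27 to 1.45, 2.57-fold) and hypothalamus by 1.15 (SE 0.05, 1.05 to 1.24, 2.21-fold), and hippocampus minus hypothalamus was -0.21 (SE 0.05, -0.31 to -0.12).

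Mean Calr was 13.78 in hippocampus, 13.80 in hypothalamus and 13.73 in the brain stem. Its differences were -0.02 (95% interval -0.10 to 0.05) for hippocampus minus hypothalamus, -0.05 (-0.12 to 0.02) for brain stem minus hippocampus and -0.07 (-0.15 to 0.01) for brain stem minus hypothalamus. All 3 intervals include 0 in this fit, which treats the regions of a mouse as independent samples. With the mouse as a block, brain stem minus hypothalamus was -0.077 (SE 0.036), against -0.072 (SE 0.039) without it. Whether that interval includes 0 therefore depends on how the mouse is treated. Most of the panel differed between regions: 70.3% of genes passed limma's test for hippocampus against hypothalamus, 75.1% for brain stem against hippocampus and 65.5% for brain stem against hypothalamus. Hspb1 and Bag3 were among the genes that passed each time and Calr was not, and nothing is read from these counts.

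Cell type markers moved with the region as well, in both directions. The summed linear level of 6 oligodendrocyte markers, in log2, was 16.35 to 16.53 in brain stem, 15.32 to 16.06 in hypothalamus and 14.36 to 15.72 in hippocampus. The summed level of 6 astrocyte markers was 15.23 to 15.56 in brain stem, 15.17 to 15.39 in hypothalamus and 14.58 to 14.85 in hippocampus. These sums were lowest in hippocampus, as Hspb1 and Bag3 were. The summed level of 5 neuronal markers was 14.20 to 14.69 in brain stem, 14.37 to 14.63 in hypothalamus and 15.13 to 15.55 in hippocampus. The summed level of 6 microglial markers was 11.38 to 11.93 in brain stem, 11.78 to 12.02 in hypothalamus and 12.04 to 12.40 in hippocampus, so that neuronal and microglial markers ran the other way. The summed level of 7 endothelial markers was 11.31 to 11.68, 11.15 to 11.58 and 11.06 to 11.42 in the same order, with overlap. All listed markers of these 5 cell types were on the panel, and none was near 0 in any sample, the lowest being an endothelial marker at 4.26. Their part in the regional levels of Hspb1 and Bag3 was not tested.

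Ordered by mean level over the 12 combinations of region and group, Hspb1 was highest in vehicle dark brain stem, followed by tumor dark brain stem and vehicle dark hypothalamus, and lowest in tumor light hippocampus. Of the 11 steps between neighbours, 8 were within the larger SD of the pair, and 1 had groups that did not overlap, the step of 0.41 from vehicle dark to tumor dark brain stem. For Bag3 the 4 brain stem groups came first, and the step of 0.87 from tumor light brain stem to vehicle dark hypothalamus was the only one of 11 without overlap. For Calr the 6 dark groups held the first 6 places and the 6 light groups the last 6, whatever the region. None of its 11 steps was free of overlap, and 9 were within the larger SD.

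From mouse to mouse within a group, the 3 members showed no common direction. Correlations of the deviations from group means are given as description, over mice that share their normalization. For Hspb1 with Bag3, Pearson's r was 0.25 in hippocampus (n = 20), -0.42 in hypothalamus (n = 17) and 0.16 in brain stem (n = 19). For Hspb1 with Calr it was -0.07, -0.01 and -0.24, and for Bag3 with Calr -0.06, -0.09 and -0.18 in the same order. The sign of the Hspb1 and Bag3 correlation thus differed between regions, and leaving out 1 mouse at a time gave 0.07 to 0.38 in hippocampus, -0.63 to -0.30 in hypothalamus and 0.03 to 0.27 in brain stem. Between regions of the same mouse, Hspb1 deviations had an r of 0.29 for hippocampus and hypothalamus (n = 17), 0.25 for brain stem and hippocampus (n = 19) and 0.36 for brain stem and hypothalamus (n = 16). For Calr the corresponding r was -0.10, 0.51 and 0.08, and for Bag3 -0.14, 0.10 and -0.29.

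**Figure D3:**
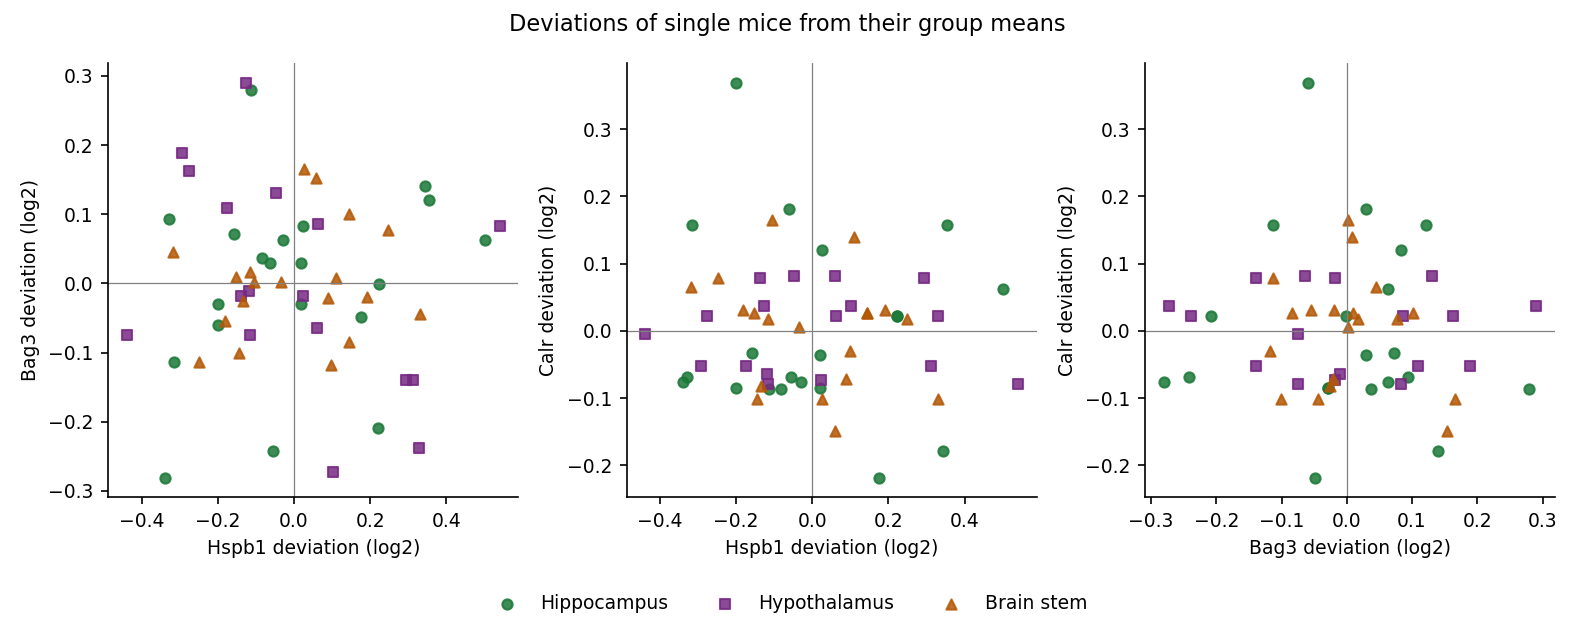
Deviation of each sample from its group mean (log2) for the 3 pairs of members, with 1 point per sample in each region. The clouds have no common slope, with r between -0.42 and 0.25 over the 9 combinations of pair and region.

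The genes whose deviations were most like those of Hspb1, by the mean Pearson's r over the 3 regions, were Ifitm2 and Ifitm3, interferon-induced membrane proteins that restrict viral entry, Rps9 and Rps10, proteins of the small ribosomal subunit, and Tnfrsf1a, a receptor for tumor necrosis factor. Ifitm2 came first with a mean r of 0.69 (0.76 in hippocampus and in hypothalamus, 0.56 in brain stem), followed by Rps9 at 0.64, Ifitm3 at 0.63, Tnfrsf1a at 0.61 and Rps10 at 0.59. In the same ranking for Hspb1, Bag3 was 337th and Calr 452nd. The dark minus light difference of Ifitm2 in vehicle injected mice was -0.11 in hippocampus, 0.03 in hypothalamus and -0.12 in the brain stem, and none of these 5 genes passed limma's test for it in any region.

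Among the genes nearest to Bag3 were Prkaca, a catalytic subunit of protein kinase A (mean r 0.44), Sox9, an astrocyte transcription factor (0.43), Atf3, a stress-induced transcription factor (0.42), and Irak4, a kinase of Toll-like receptor signalling (0.42). For Calr they were Gna15, a G protein subunit (0.46), Tfg, a protein of export from the endoplasmic reticulum (0.45), Atg7, an enzyme of autophagosome formation (0.44), F3, tissue factor (0.40), and Ep300, a histone acetyltransferase (0.39). Not all of these held in each region. In hippocampus, hypothalamus and brain stem, r was 0.39, 0.83 and 0.06 for Sox9 and 0.33, 0.76 and 0.16 for Irak4. For F3 it was -0.06, 0.59 and 0.66. The means are among the highest on the panel for each member and carry no test.

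Within groups, the levels of the members were set against the RNA absorbance ratio and spleen mass in all mice and against tumor mass in tumor-bearing mice, which gave 27 relations over 3 genes and 3 regions. Mice were permuted within groups. None passed after Benjamini-Hochberg adjustment, and 1 had an unadjusted p under 0.05. It was Calr in hypothalamus against tumor mass, with r = -0.81 (permutation p = 0.0129, adjusted p = 0.348) and rho = -0.76 (permutation p = 0.0226, adjusted p = 0.609) over 10 mice, and r = -0.73 without the 2 mice farthest from the median tumor mass. Calr took 4 distinct values in these 10 samples. For Hspb1, r with tumor mass was 0.59 in hippocampus (permutation p = 0.113, adjusted p = 0.608, rho 0.53) and fell to 0.33 without the 2 farthest mice, so it rested on them in part. For Hspb1 in brain stem, r with the RNA absorbance ratio was -0.42 (permutation p = 0.0983, adjusted p = 0.608) and -0.24 without the 2 farthest mice.

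Other chaperones and co-chaperones on the panel were few. Of a list of 20 genes of protein folding and the unfolded protein response, 5 were on the panel, the 3 members with Bag4 and Fkbp5, so that Hspa1a, Dnajb1, Hspa5 and other usual partners could not be read. Fkbp5, a co-chaperone of HSP90 that is induced by glucocorticoids, had a dark minus light difference in vehicle injected mice of 0.33 (SE 0.11, limma adjusted p = 0.109) in hippocampus, 0.27 (SE 0.18, adjusted p = 0.905) in hypothalamus and 0.28 (SE 0.12, adjusted p = 0.397) in brain stem. In tumor-bearing mice it was 0.07, -0.01 and -0.03. Bag4, another protein with a BAG domain, was at 0.06, -0.15 and -0.07 in vehicle injected mice. Neither passed in any region or contrast.

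Of 8 stress-inducible genes, all on the panel, 1 passed for dark minus light in vehicle injected mice, Cdkn1a in brain stem. Cdkn1a, an inhibitor of the cell cycle, rose there by 0.65 (SE 0.11, limma adjusted p = 0.00339), with 0.35 (adjusted p = 0.0969) in hippocampus and 0.46 (adjusted p = 0.290) in hypothalamus. Gadd45g, a stress sensor of the growth arrest family, fell by 0.46 (SE 0.08, adjusted p = 0.00368) from light to dark in the hypothalamus of tumor-bearing mice. The median dark minus light difference of the 8 genes in vehicle injected mice was 0.19 in hippocampus, 0.08 in hypothalamus and 0.14 in the brain stem, and in tumor-bearing mice -0.08, 0.02 and -0.08. The median of all genes lay between -0.002 and 0.013 in these contrasts.

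**Figure D4:**
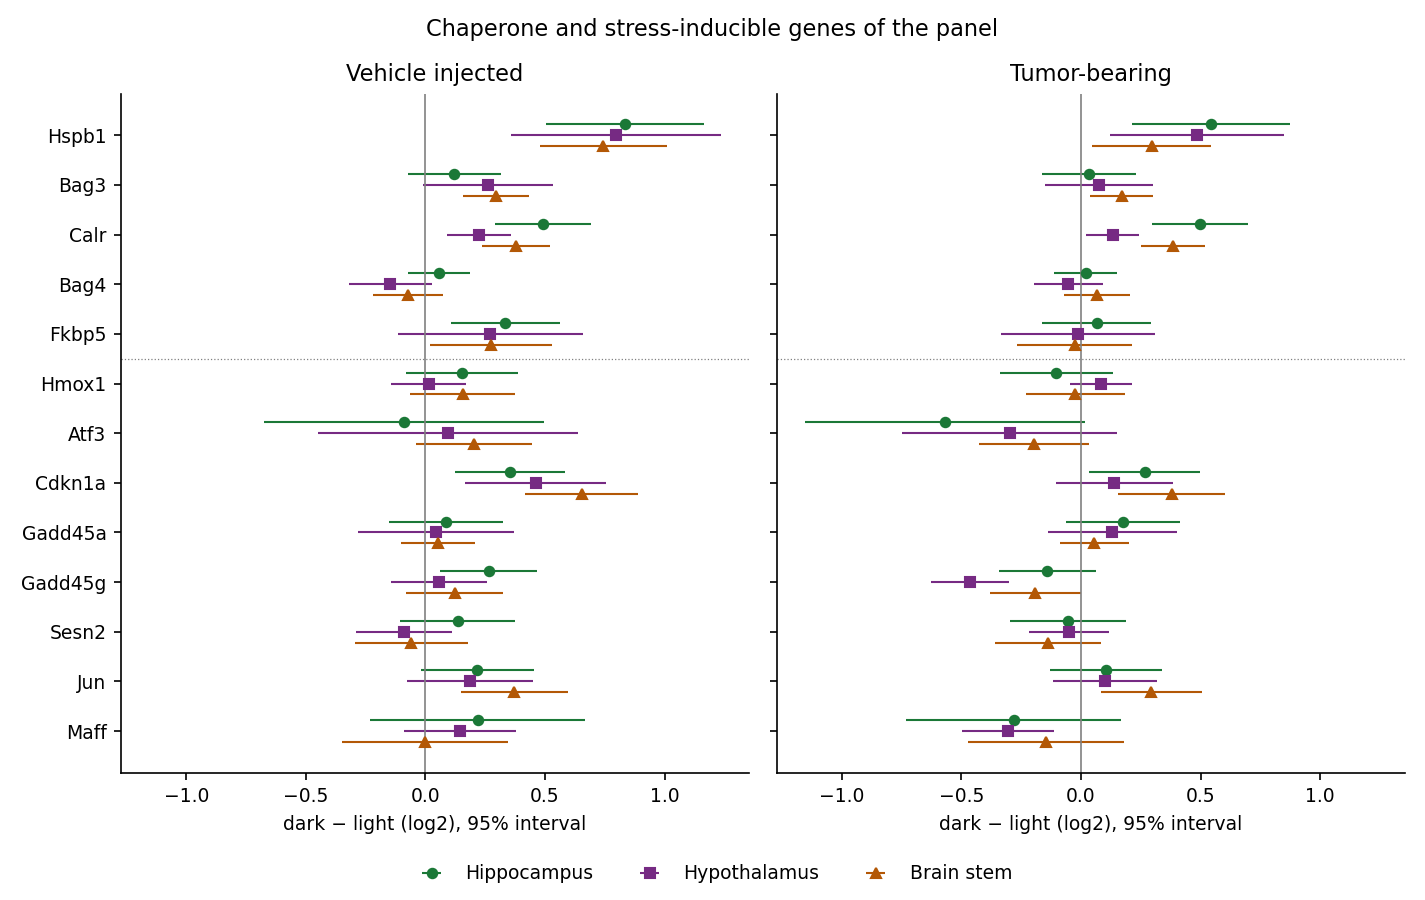
Dark minus light difference in log2 level (points, with 95% intervals) of the 5 chaperone genes above the dotted line and the 8 stress-inducible genes below it, in vehicle injected and tumor-bearing mice, for each region. Hspb1 and Cdkn1a lie furthest to the right in vehicle injected brain stem, at 0.74 and 0.65.

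Of 13 genes of autophagy, the route into which Bag3 feeds damaged proteins, 0 passed limma's test for dark minus light in either tumor group of any region, with 1 to 3 genes a contrast at an unadjusted p under 0.05 and medians between -0.02 and 0.04. Of 8 genes of the oxidative stress factor Nrf2, its own gene and targets of it, 0 passed, with 0 to 3 at an unadjusted p under 0.05. Of 9 immediate early genes 1 passed, Egr1, a transcription factor induced by neuronal activity, which fell by 1.09 (SE 0.19, limma adjusted p = 0.00578) from light to dark in the hypothalamus of tumor-bearing mice. The list did not fall with it, as 5 of the 9 were higher at mid-dark there and the median was 0.05. Of 8 genes linked to calreticulin as an engulfment signal or to phagocytic receptors, 6 were on the panel. Mertk, a receptor tyrosine kinase of phagocytes and astrocytes, rose by 0.29 (SE 0.07, adjusted p = 0.0187) at mid-dark in the hippocampus of vehicle injected mice and by 0.28 (SE 0.07, adjusted p = 0.043) in that of tumor-bearing mice. The other 5 did not pass in any of these contrasts. In vehicle injected hippocampus these 5 were lower at mid-dark, 1 of them at an unadjusted p under 0.05, and the median of the 6 was -0.12. In tumor-bearing hippocampus 5 of the 6 were higher, with a median of 0.09.

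Markers of oligodendrocytes and the endothelial marker Cldn5 also moved between dark and light. All 6 oligodendrocyte markers were lower at mid-dark in the hippocampus of tumor-bearing mice, with a median difference of -0.64, and 3 of them passed limma's test, Cnp, Mag and Opalin. In vehicle injected hippocampus the median was -0.29 and Opalin passed. Their summed level in hippocampus was 15.07 to 15.41 in vehicle dark, 15.08 to 15.56 in vehicle light, 14.36 to 15.49 in tumor dark and 15.27 to 15.72 in tumor light. Opalin, a myelin protein, also passed as lower at mid-dark in both tumor groups of hypothalamus and brain stem. Mog, another of the markers, passed as lower in tumor-bearing brain stem. All markers tested were lower at mid-dark in tumor-bearing mice there (5 markers, median -0.31) and in hypothalamus (6 markers, median -0.29). In vehicle injected mice 1 of the 5 was higher in brain stem (median -0.20) and 2 of the 6 in hypothalamus (median -0.12). Of 7 endothelial markers, Cldn5, a tight junction protein, passed as higher at mid-dark in tumor-bearing mice in each region, and no other did. The 7 had no common direction there, with 3, 4 and 2 of them higher in hippocampus, hypothalamus and brain stem. Their medians were -0.004, 0.010 and -0.066. All 6 microglial markers were lower at mid-dark in vehicle injected hippocampus, with a median of -0.19, and none passed. In tumor-bearing hippocampus 4 of the 6 were higher, with a median of 0.03. Ttr, the marker of choroid plexus, ranged in hippocampus from 6.62 to 14.71 in vehicle dark, 7.71 to 14.01 in vehicle light, 5.36 to 13.77 in tumor dark and 6.82 to 14.58 in tumor light, so that it varied widely within groups, and it passed for no dark against light comparison. The part of these cell type markers in the daily differences of Hspb1, Bag3 and Calr was not tested. The nanoString cartridge and lane of each sample are not given in the sources used here, so an effect of run was not tested.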

How the data were processed

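RNA from 3 brain regions of 20 mice was measured on a nanoString panel of 770 genes. Per the study's methods, the authors subtracted background and normalized to positive controls and codeset content with nSolver, and used Partek for quantile normalization. The deposited values are on a log2 scale and ran from -0.37 to 15.36. Quantile normalization gives all samples one distribution, so values near the top move in rank steps. Linear models were fitted per region with a mean for each of 4 groups (R 4.3.3, limma 3.58.1, lmFit and eBayes), without genes constant in a region, and with p-values adjusted by Benjamini-Hochberg over all genes. Regions were compared in 1 fit over all 56 samples, with and without the mouse as a block. Same-mouse samples came from the same animal, and the estimated correlation was 0.136. Relations used deviations from group means and 100000 permutations within groups (Python 3.11.15, numpy 2.4.6). Scripts were tested on simulated data. The members and gene lists were chosen with earlier results of these data known. Named genes were the members, the 5 genes most like each, and pathway genes that passed the test, and 1 gene so named is not reported here.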

Additional observations from a re-analysis of the deposited data

Results flagged for a closer look

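In groups of 4 or 5 samples, 33 combinations of member, region and group were examined for a sample far from the others, of which chance flags about 1 in 20. The 3 groups of 3 samples were not examined. In tumor light hippocampus, Bag3 of mouse 29 was 7.07, and the gap to the next sample at 7.41 was 0.945 of the range of the group. In vehicle dark brain stem, Calr of mouse 4 was 13.90 while the other 3 samples shared the value 14.01, so the gap was the whole range (a ratio of 1). In vehicle light hypothalamus, Calr of mouse 2 was 13.68 while the other 3 samples shared 13.77, again a ratio of 1. Both Calr gaps are single steps between neighbouring values of the quantile-normalized scale.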

How the results depend on the processing

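Under the alternatives, 1201 values of the members by tumor or time stayed the same and 5 moved by more than the spread between replicates, and no called value changed sign. Some calls of members changed. Bag3 in vehicle injected brain stem no longer passed for dark minus light with only the 2 groups compared. Nor did it without samples of ratio under 1.8, with the ratio as covariate, or without mouse 2, 4, 6, 10, 12, 28 or 30. Calr in tumor-bearing mice no longer passed in hippocampus with only the 2 groups compared, and in brain stem without samples of ratio under 1.8. Hspb1 in tumor-bearing hippocampus passed without mouse 9. With group medians, the difference of differences of Bag3 in hippocampus was -0.29 in place of -0.09. Tumor minus vehicle of Calr in hypothalamus at mid-dark was -0.24 in place of -0.15. Without brain stem samples of an RNA absorbance ratio under 1.8, Calr gave -0.21 for tumor minus vehicle at mid-dark, 0.28 for dark minus light in tumor-bearing mice and -0.10 for the difference of differences. Without the 2 mice farthest from the median of the measure, r of Hspb1 with spleen mass was 0.032 in place of 0.27 in hippocampus. In brain stem it was 0.14 in place of 0.38. Against tumor mass, r of Hspb1 in hippocampus was 0.33 in place of 0.59. Against the RNA absorbance ratio, r of Bag3 in hippocampus was 0.17 in place of 0.40. That of Calr in brain stem was 0.10 in place of -0.20, a change of sign. The cause of these shifts was not tested. Leaving out each mouse in turn gave -0.082 to -0.061 for Calr in brain stem minus hypothalamus. The region fit with the mouse as a replicate block gave 1.25 for brain stem minus hippocampus of Hspb1 and -0.08 for brain stem minus hypothalamus of Calr, and no regional difference of a member changed direction. With only the 2 groups compared, the genes that passed numbered 10 in place of 18 for dark minus light in vehicle injected hippocampus, 0 in place of 8 in tumor-bearing hippocampus, 0 in place of 2 in vehicle injected hypothalamus, 5 in place of 8 in tumor-bearing hypothalamus, 3 in place of 6 in tumor-bearing brain stem and, for tumor minus vehicle at mid-light in brain stem, 1 in place of 6, with 2 by ordinary p-values. For tumor minus vehicle at mid-dark in hippocampus 2 in place of 1 passed, as they did among genes of mean log2 of at least 5. Depth could not be weighed, as raw counts were not used here.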
